A study of Mus musculus with 7 samples.

Results

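Pcna, Rfc4, Fen1, Gins2, Pola1, Rrm1, Rrm2, Tyms and Tk1 are 9 genes that work at the replication fork or make the deoxynucleotides it consumes. They were taken by name, as every probe of the array annotated to one of them, which gave 10 probes of the 39429 on the array and 9 of its 31829 gene names. Rfc4 has a pair of probes and the other 8 genes have 1 each, and no further probe carried the RefSeq accession of a member. mRNA of C2C12 cells, a line of mouse myoblasts that can fuse to form myotubes, was measured on 1-colour Agilent arrays after 24 h with exosomes from other C2C12 cultures. The 4 EXO-Post BSA arrays are of cells given exosomes from cultures treated with the carrier albumin alone. The 3 EXO-Post Palm arrays are of cells given exosomes from cultures treated with 0.5 mmol/l palmitate, the main saturated fatty acid of palm oil, and the comparison asks which mRNA levels differed between these recipients. Exosomes of both groups were collected 9 h after removal of the treatment. The study's text describes the recipients as differentiated myotubes in serum-free medium. The array labels give myoblast as the cell type and do not mention the 9 h interval. The source labels name C2C12 for all 7 samples, while the labels' cell line field counts up by 1 from sample to sample after C2C12, and all were taken as C2C12 here. Both groups received exosomes, so the arrays hold no culture without them. The samples are labelled as biological replicates, and nothing says whether each had its own exosome preparation.

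At the fork, the GINS complex helps the helicase that unwinds DNA, DNA polymerase alpha with its primase starts each new strand, and the clamp loader RFC places the sliding clamp PCNA, which holds the later polymerases on DNA. FEN1 removes the flaps left between the pieces of the lagging strand. Ribonucleotide reductase, of the subunits RRM1 and RRM2, makes deoxynucleotides. Thymidylate synthase and thymidine kinase 1 supply thymidylate, the former by synthesis and the latter by salvage. Many of these genes are known as targets of E2F and are transcribed mainly around S phase. They are known to be lower in myotubes, which have left the cell cycle, than in dividing cells.

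Values are given as log2 processed signal relative to the 75th percentile of the same array, so that 0 is that percentile. A positive log2 fold change is a higher value with EXO-Post Palm. The 75th percentile lay between 549.4 and 1621, and between 48.5 and 70.3% of the probes were well above background on an array. All 10 member probes were well above background on all 7 arrays, so all 9 members were tested. With EXO-Post BSA, Pcna, Fen1, Rrm1, Rrm2 and the brighter Rfc4 probe read above the 75th percentile on each array with a value. Tk1, Gins2, Pola1, Tyms and the other Rfc4 probe read below it. Of 4 slides, 2 carried both groups, slide 1 with replicate 1 of each group plus EXO-Post BSA replicate 2, and slide 3 with the last replicate of each group. EXO-Post BSA replicate 3 and EXO-Post Palm replicate 2 were each alone on a slide. Fold changes given with slide as a block, meaning a fixed block, therefore rest on slides 1 and 3 alone. EXO-Post BSA replicate 3 was also read with a later version of the scanner software. All 10 myotube markers, among them creatine kinase and skeletal actin, were well above background on all 7 arrays. Their summed signal, in multiples of the 75th percentile, was 559 to 708 with EXO-Post BSA and 511 to 627 with EXO-Post Palm.

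No member passed the threshold of a limma adjusted p of 0.05, which 0.463% of the 21589 tested probes passed as higher with EXO-Post Palm and 0.0695% as lower. Tk1 was nearest to it and had the largest difference of the members. Taken by its brightest probe, 8 of the 9 members had a log2 fold change above 0, where 47.3% of all tested probes did, and the lone member below 0 was Rrm1. An unadjusted limma p under 0.05 was reached by Fen1, Gins2, Pola1 and Tk1, 4 of the 9, all of them higher, against 4.85% of all tested probes in that direction and 5.19% in the other. On those same 4 genes every EXO-Post Palm array lay above every EXO-Post BSA array, which held for 5.44% of the 21137 probes with a value on all 7 arrays, while the reverse held for 5.79%. Pcna, with a value on 5 arrays, is not among the 8 members that could be counted in this way. The median log2 fold change of the 9 members was 0.73, beside -0.02 over all tested probes. The members, and the lists below, were chosen with earlier results of these data known. Their counts beside the shares of all probes are therefore a description and no test. Fewer or more cells in cycle and less or more mRNA per cell cannot be told apart on these arrays.

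**Figure D1:**
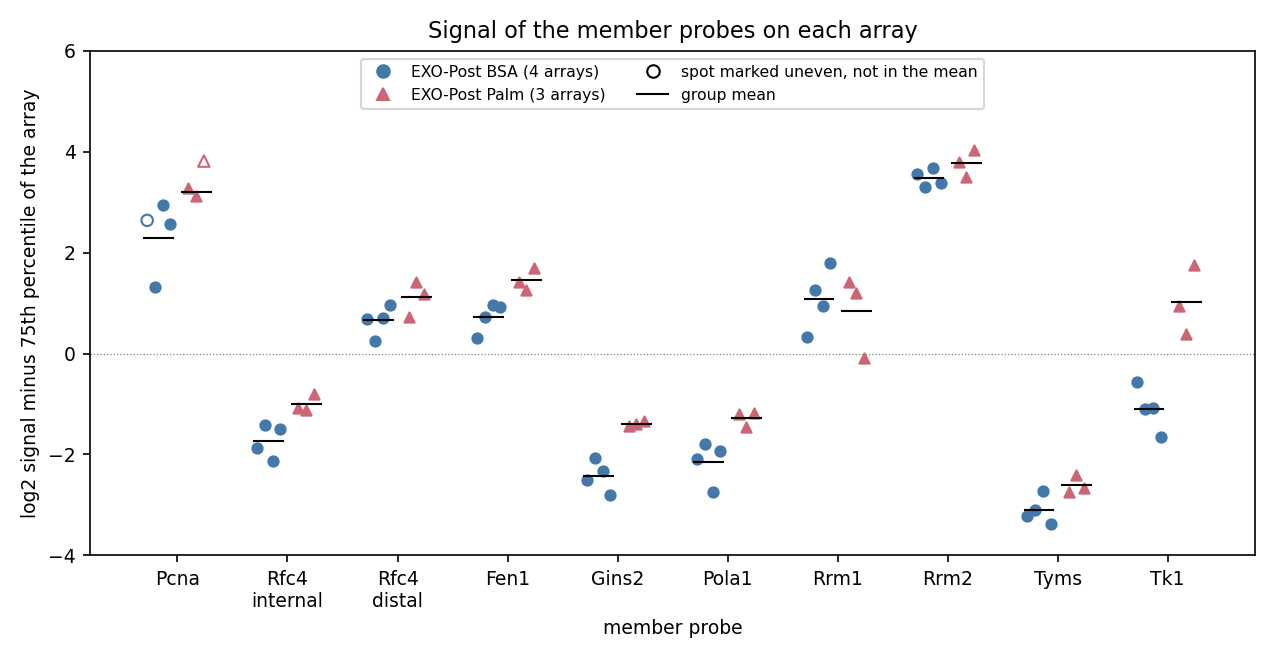
Signal of each member probe on each array, as log2 signal minus the array's 75th percentile (y axis), with circles for the 4 EXO-Post BSA arrays, triangles for the 3 EXO-Post Palm arrays and lines for group means. Open symbols are the Pcna spots marked uneven. The triangles lie wholly above the circles for the internal Rfc4 probe, Fen1, Gins2, Pola1 and Tk1, and the groups overlap for the distal Rfc4 probe, Rrm1, Rrm2 and Tyms. Probes differ in binding, so heights are not compared between them.

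Tk1, thymidine kinase 1, phosphorylates thymidine taken up or recycled by the cell. Its probe lies at chr11:117676845-117676904 of mm9, the build of the array annotation, on the minus strand. The EXO-Post BSA values were -0.56, -1.11, -1.07 and -1.66. The EXO-Post Palm values were 0.94, 0.39 and 1.75. All 3 EXO-Post Palm arrays were above the 75th percentile of their array and all 4 EXO-Post BSA arrays were below it, so the groups did not overlap. The log2 fold change was 2.13 ± 0.37 (SE), or 4.37-fold, with a 95% interval of 1.29 to 2.96. It just missed the threshold (limma adjusted p = 0.0535, exact permutation p = 0.0286, n = 4 and 3), and that exact p is the smallest that 35 splits of 7 arrays allow. The difference was 1.77 within slide 1 and 3.41 within slide 3, and 2.47 with slide as a block (limma adjusted p = 0.0705). Over 13 alternative settings the adjusted p ran from 0.0164 to 0.271 and 7 of the 13 passed. Of the 7 fits that left out 1 array, the one without EXO-Post Palm replicate 2 passed (log2 fold change 2.44, limma adjusted p = 0.0285) and the others did not.

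Gins2 codes for a subunit of GINS. Its probe is at chr8:123112627-123112686 of mm9, minus strand. Its EXO-Post BSA values were -2.50, -2.07, -2.33 and -2.80. Its EXO-Post Palm values were -1.43, -1.40 and -1.34. The EXO-Post Palm arrays were close together and all above the highest EXO-Post BSA array. Gins2 thus had a log2 fold change of 1.04 ± 0.22 (SE), or 2.05-fold, with a 95% interval of 0.53 to 1.55 (limma adjusted p = 0.124, exact permutation p = 0.0286). It was 0.86 within slide 1 and 1.46 within slide 3, and 1.12 with slide as a block.

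Pola1, the catalytic subunit of DNA polymerase alpha, is read at chrX:90550189-90550248 of mm9, minus strand. Its EXO-Post BSA values were -2.10, -1.80, -2.74 and -1.93. Its EXO-Post Palm values were -1.20, -1.45 and -1.19. EXO-Post BSA replicate 3 was the lowest array, and the groups did not overlap. For Pola1 the log2 fold change was 0.86 ± 0.26 (SE), with a 95% interval of 0.27 to 1.46 (limma adjusted p = 0.297, exact permutation p = 0.0286). It was 0.75 within slide 1, 0.74 within slide 3 and 0.75 with slide as a block.

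Fen1, the flap endonuclease, is read at chr19:10273675-10273734 of mm9, minus strand. Its EXO-Post BSA values were 0.30, 0.73, 0.96 and 0.92. Its EXO-Post Palm values were 1.42, 1.26 and 1.69. EXO-Post BSA replicate 1 was the lowest array, and the groups did not overlap. This gave a log2 fold change of 0.73 ± 0.24 (SE), with a 95% interval of 0.20 to 1.27 (limma adjusted p = 0.334, exact permutation p = 0.0286). It was 0.90 within slide 1, 0.78 within slide 3 and 0.85 with slide as a block.

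Rfc4, a small subunit of the clamp loader, is the member with more than 1 probe. One probe lies within the gene at chr16:23120982-23121041 of mm9 and the other downstream of it along the minus strand, at chr16:23114024-23114083 (named distal in the plots). The internal probe and that of Gins2 are shown here in full, 5′ to 3′, since they are the internal reading that separated the groups and the member with the smallest unadjusted p after Tk1. Both are 60 bases long and hold a reading frame without a stop codon, which was not compared with other probes.
Rfc4 internal probe: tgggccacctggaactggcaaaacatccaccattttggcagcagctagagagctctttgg
Gins2 probe: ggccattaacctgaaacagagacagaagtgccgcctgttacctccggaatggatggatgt
The internal Rfc4 probe read -1.88, -1.42, -2.12 and -1.50 with EXO-Post BSA. It read -1.07, -1.12 and -0.80 with EXO-Post Palm. These groups did not overlap, and the log2 fold change was 0.73 ± 0.24 (SE; limma adjusted p = 0.342, exact permutation p = 0.0286). The downstream probe, the brighter one and the one counted for the gene, read 0.69, 0.25, 0.71 and 0.97 with EXO-Post BSA. It read 0.73, 1.42 and 1.18 with EXO-Post Palm. Here EXO-Post Palm replicate 1 lay below EXO-Post BSA replicate 4, and the log2 fold change was 0.45 ± 0.26 (SE; limma adjusted p = 0.601, exact permutation p = 0.143). With slide as a block the values were 0.63 for the internal probe and 0.24 for the downstream one, and within slides 1 and 3 they were 0.57 and 0.70 for the former and 0.26 and 0.21 for the latter. The difference between the probes was not tested.

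Pcna, the sliding clamp, has a single probe, and it could be read on 5 arrays. The annotation places 33 of its 60 bases, at chr2:132075022-132075054 of mm9 on the minus strand, and lists 2 predicted transcripts beside the RefSeq one. Of the 39241 probes with coordinates, 607 span fewer than 60 bases. The scanner software marked the spot as uneven on EXO-Post BSA replicate 1 and EXO-Post Palm replicate 3, and the fit left those spots out. The remaining EXO-Post BSA values were 1.32, 2.95 and 2.57 for replicates 2 to 4. The remaining EXO-Post Palm values were 3.27 and 3.12 for replicates 1 and 2. Both lay above the EXO-Post BSA arrays, of which replicate 2 was far below the others. The log2 fold change was 0.92 ± 0.49 (SE; limma adjusted p = 0.597, n = 3 and 2), with a 95% interval of -0.26 to 2.09. Without EXO-Post BSA replicate 2 it was 0.44. With slide as a block it was 1.96. That value rests on slide 1 alone, as EXO-Post Palm replicate 1 against the low EXO-Post BSA replicate 2, so it carries no measure of spread. With the uneven spots kept, at 2.64 and 3.81, the groups again did not overlap, and the log2 fold change was 1.03 (limma adjusted p = 0.433, exact permutation p = 0.0571). The differences within slides 1 and 3 were then 1.30 and 1.24.

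Rrm1, the large subunit of ribonucleotide reductase, is read at chr7:109617223-109617283 of mm9, plus strand. Its EXO-Post BSA values were 0.32, 1.25, 0.93 and 1.80. Its EXO-Post Palm values were 1.41, 1.20 and -0.08. EXO-Post Palm replicate 3 was the lowest of all arrays and the groups overlapped. The log2 fold change was -0.23 ± 0.44 (SE), with a 95% interval of -1.24 to 0.77 (limma adjusted p = 0.894, exact permutation p = 0.686). The sign was not stable, with 0.63 within slide 1, -1.88 within slide 3 and -0.45 with slide as a block. It was 0.23 when EXO-Post Palm replicate 3 was left out and 0.01 when EXO-Post BSA replicate 4 was.

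Rrm2, the small subunit of the reductase that carries the radical and limits the enzyme in S phase, is read at chr12:25398824-25398883 of mm9, plus strand. Its EXO-Post BSA values were 3.56, 3.30, 3.68 and 3.39. Its EXO-Post Palm values were 3.80, 3.49 and 4.03. EXO-Post Palm replicate 2 lay within the EXO-Post BSA range and the other replicates above it. Rrm2 had a log2 fold change of 0.29 ± 0.22 (SE), with a 95% interval of -0.20 to 0.78 (limma adjusted p = 0.691, exact permutation p = 0.143), so the interval leaves out a 2-fold difference. It was 0.37 within slide 1, 0.64 within slide 3 and 0.49 with slide as a block. The difference between the subunits was not tested.

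Tyms, thymidylate synthase, is read at chr5:30385578-30385637 of mm9, minus strand. Its EXO-Post BSA values were -3.23, -3.11, -2.73 and -3.38. Its EXO-Post Palm values were -2.75, -2.40 and -2.66. EXO-Post BSA replicate 3 reached into the EXO-Post Palm range, where it lay above replicate 1. For Tyms the log2 fold change was 0.51 ± 0.23 (SE), with a 95% interval of -0.01 to 1.02 (limma adjusted p = 0.505, exact permutation p = 0.0857). With slide as a block it was 0.55, and it was 0.42 within slide 1 and 0.72 within slide 3.

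**Figure D2:**
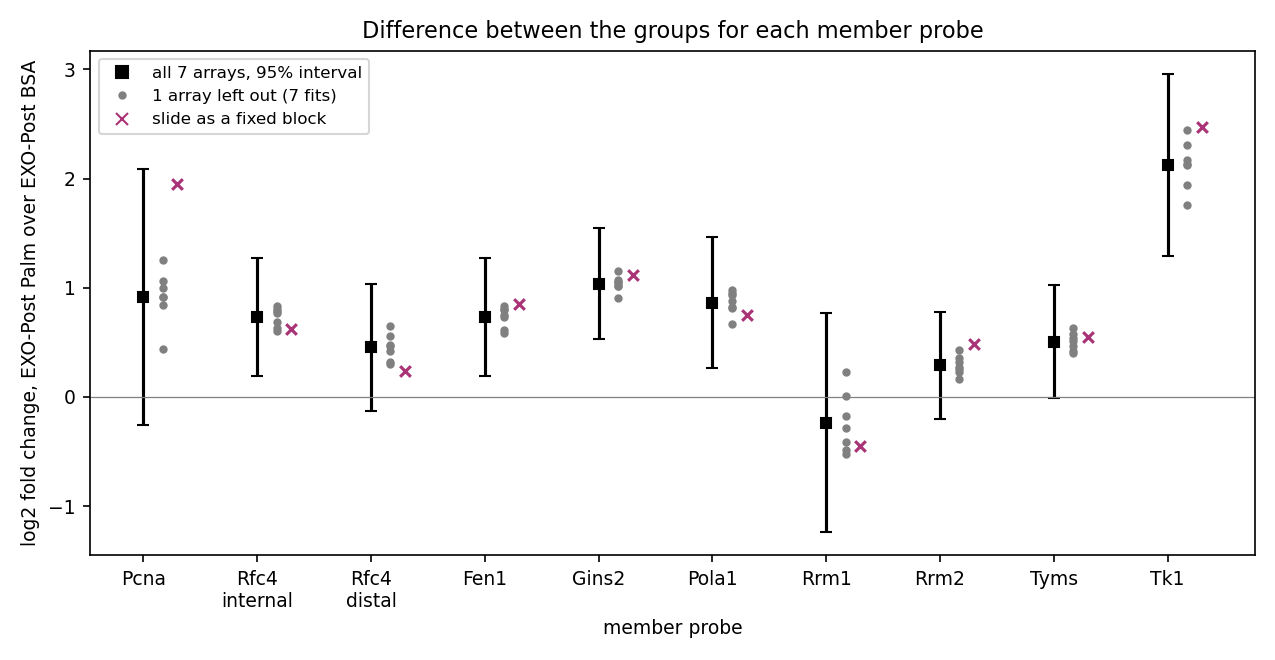
Log2 fold change of each member probe, EXO-Post Palm over EXO-Post BSA (y axis), with squares for all 7 arrays (5 for Pcna), bars for 95% intervals, dots for the 7 fits that leave out 1 array and crosses for slide as a fixed block. The interval lies above 0 for the internal Rfc4 probe, Fen1, Gins2, Pola1 and Tk1, and Rrm1 is the probe whose dots fall on both sides of 0. The Pcna cross rests on 1 array of each group.

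Over the 8 members with a value on every array, the median excess over each gene's EXO-Post BSA mean came to 0.53, 0.70 and 0.75 on the EXO-Post Palm arrays (replicates 1 to 3). On these arrays 5, 6 and 7 of the 8 members lay above their highest EXO-Post BSA array, where 16.2, 26.4 and 22.6% of all tested probes with complete values did.

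The other genes of the same complexes were mixed. In the clamp loader, Rfc2 and Rfc5 had log2 fold changes of 0.94 ± 0.24 and 0.87 ± 0.22 (SE), with no overlap of the groups (limma adjusted p = 0.205 and 0.191). Rfc3 was at 0.37 and the large subunit Rfc1 at -0.19, with overlap. In GINS, Gins1 was at 1.27 ± 0.27 (SE) without overlap (limma adjusted p = 0.122), beside 1.04 for Gins2. Gins3 was at -0.23 and Gins4 at 0.09, both with overlap. Of the polymerase alpha-primase genes, the primase subunit Prim1 was at 0.64, Pola2 at 0.19 and Prim2 at -0.18, all with overlap. Lig1, the ligase that seals the nick FEN1 leaves, was at -0.08. The single-strand binding proteins Rpa1, Rpa2 and Rpa3 were at -0.05, 0.22 and 0.56. With slide as a block Rpa2 was at 0.88 (limma adjusted p = 0.412), with 0.80 within slide 1 and 0.98 within slide 3. That fit gives no weight to EXO-Post Palm replicate 2, where Rpa2 read -2.90, below its lowest EXO-Post BSA value of -2.64. By the same fit Rfc3 was at 0.26, Rfc5 at 0.75 and Lig1 at -0.21, each lower than without the block. Cdc45 and Dna2 were too dim to be tested. The sign of Pola2, Prim2, Gins3, Gins4, Lig1, Rpa1 and Rpa2 differed between alternative settings, as did that of Tk2 and Samhd1.

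Among the enzymes around Tyms and Tk1, Dut, which turns dUTP into the substrate of thymidylate synthase, was at 0.70 ± 0.25 (SE; limma adjusted p = 0.397) without overlap. Dtymk, the next kinase after TK1, was at 0.41, with overlap, and at 0.71 with slide as a block (limma adjusted p = 0.593). The block gives no weight to EXO-Post Palm replicate 2, the lowest EXO-Post Palm array for Dtymk at 1.87. The mitochondrial thymidine kinase Tk2 was at 0.11 and Samhd1, which degrades deoxynucleotides, at 0.05, both with overlap. Rrm2b, the reductase subunit used outside S phase, and the kinase Dck were too dim to be tested.

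**Figure D3:**
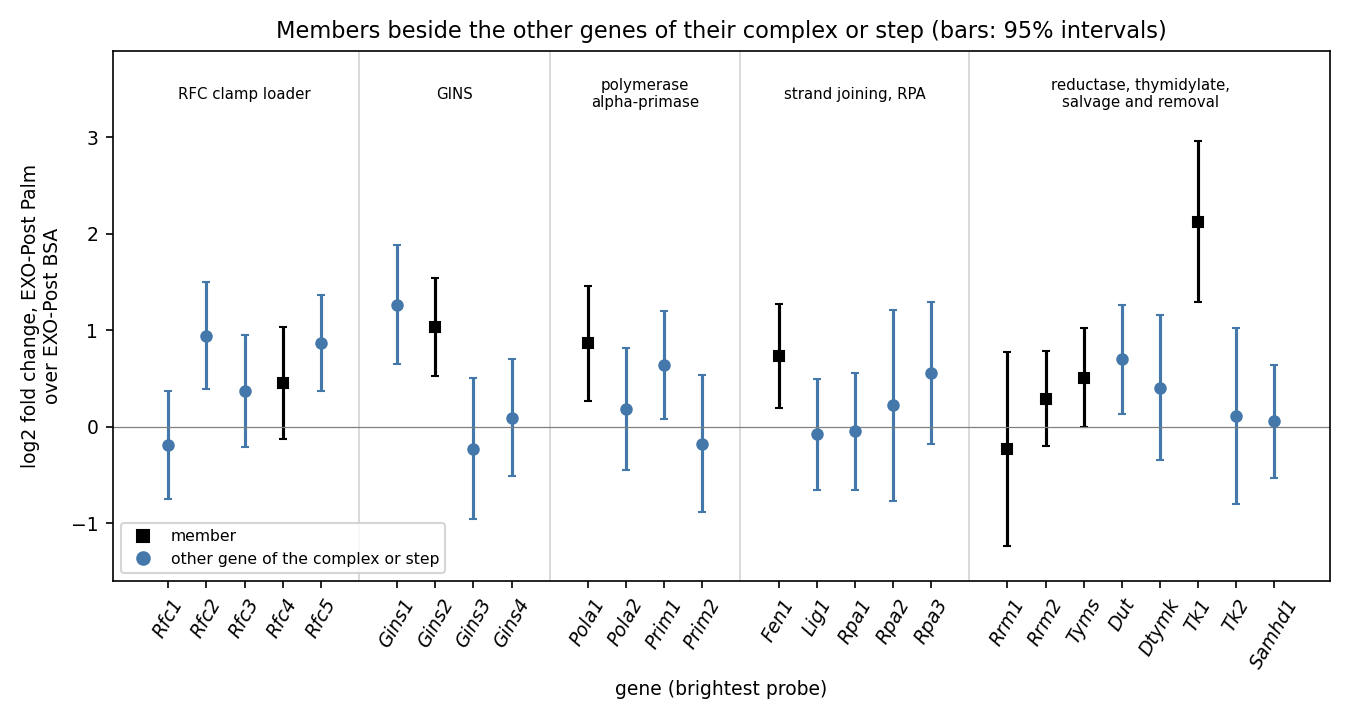
Log2 fold change, EXO-Post Palm over EXO-Post BSA (y axis), of the members (squares) and other tested genes of their complex or step (circles), each by its brightest probe with its 95% interval. Tk1 is the highest at 2.13, and Gins1 and Gins2 stand above Gins3 and Gins4. The interval lies above 0 for Rfc2, Rfc5, Gins1, Gins2, Pola1, Prim1, Fen1, Dut and Tk1, and spans 0 for the other genes shown.

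In a list of 40 other fork proteins, 37 were tested and none passed the adjusted threshold, where 0.463% of all tested probes did as higher. The log2 fold change was above 0 for 27 and below 0 for 10, where 47.3% of all tested probes were above 0, with a median of 0.25. An unadjusted limma p under 0.05 was reached by 11 as higher, against 4.85% of all tested probes, and by 1 as lower, the ribonuclease H2 subunit Rnaseh2b (-1.04). The groups did not overlap for 8 of them, all higher with EXO-Post Palm, against 5.44% of all probes with complete values as higher and 5.79% as lower. In a list of 36 other enzymes of nucleotide synthesis, 34 were tested and again none passed. The log2 fold change was above 0 for 21 and below 0 for 13, against the same 47.3%, with a median of 0.11. An unadjusted limma p under 0.05 was reached by 2 as higher, against 4.85% of all tested probes, and by 2 as lower, against 5.19%. The latter were Impdh1 (-0.83) and Paics (-0.51), both of purine synthesis. The groups did not overlap for 2 as higher and 1 as lower, against 5.44 and 5.79% of all probes with complete values.

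Markers of dividing cells were also higher with EXO-Post Palm. Of 8 proliferation markers, 7 were tested, with a median log2 fold change of 2.12. All 7 were higher without overlap, against 5.44% of all probes with complete values. The threshold was passed by 4 as higher, against 0.463% of all tested probes, and not by Cdk1, Ccna2 and Ccne1. The 4 were the mitotic cyclin Ccnb1 (2.76, limma adjusted p = 0.0108), topoisomerase Top2a (2.36, 0.0141), the checkpoint kinase Bub1 (1.95, 0.0339) and the antigen Mki67 (2.12, 0.0436). Their summed signal over the list was 3.03 to 3.77 times the 75th percentile with EXO-Post BSA and 9.37 to 21.3 times with EXO-Post Palm, and Aurkb was not above background on any array. Macrophage markers were dim. Their summed signal was 1.73 to 2.23 with EXO-Post BSA and 2.49 to 4.07 with EXO-Post Palm, Lyz2 was not above background on any array, and of the 6 markers 3 were tested and none passed, with Cd14 highest at 1.05 without overlap (limma adjusted p = 0.219). Myoblast markers summed to 25.0 to 33.1 and 21.7 to 34.8, with Myf5 not above background on any array. Endothelial markers summed to 4.27 to 5.46 and 3.11 to 6.48, with Cdh5 and Tek not above background, and adipocyte markers to 0.13 to 0.23 and 0.13 to 0.17. Of the 10 myotube markers, 2 had a log2 fold change above 0 and 8 below 0, with a median of -0.10. Among all tested probes 47.3% were above 0. The groups did not overlap for 1 myotube marker as higher and 2 as lower, against 5.44 and 5.79% of all probes with complete values. No myotube marker passed the threshold. The part of any of these cell types in the members' values was not tested.

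**Figure D4:**
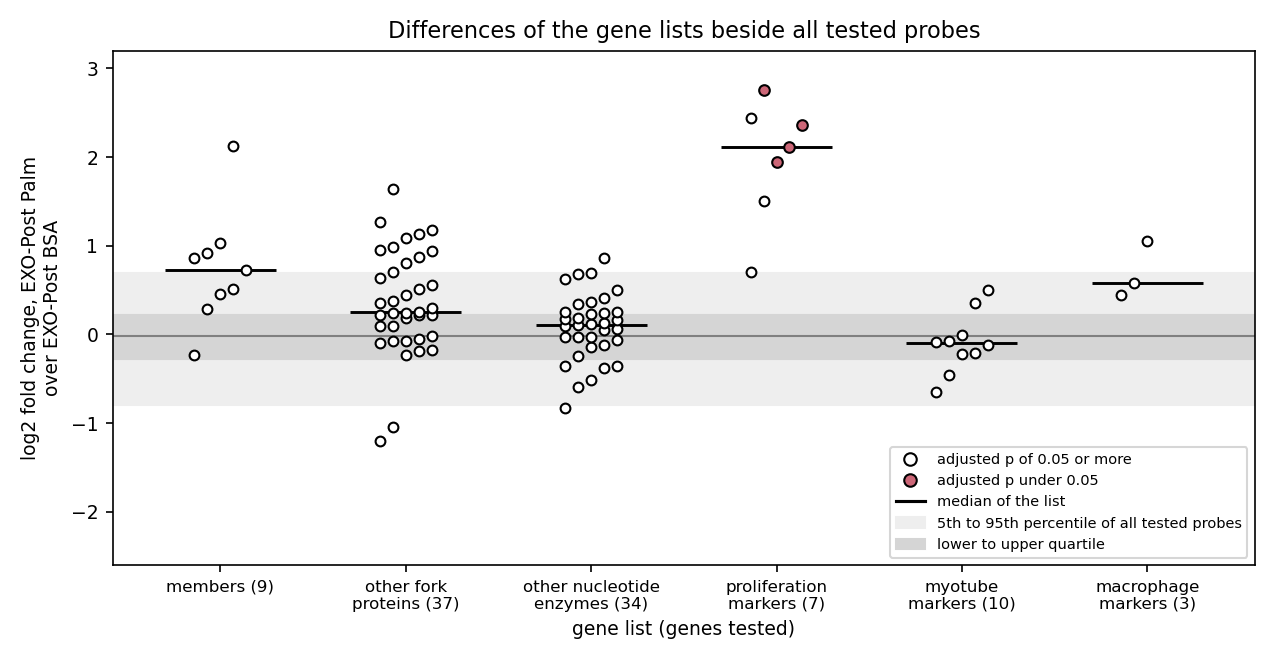
Log2 fold change, EXO-Post Palm over EXO-Post BSA (y axis), of each tested gene of 6 lists by its brightest probe (x axis, number of genes tested in brackets), with black lines for list medians and grey bands for all tested probes. Filled points passed an adjusted p of 0.05. The members' median of 0.73 lies above the 95th percentile of all tested probes, 0.69, and the filled points are all proliferation markers.

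The genes whose values over the 7 arrays were most like the mean of the 8 members with complete values were Gdpd2 (Pearson r = 0.9975), Hmgb2 (0.9929), Shcbp1 (0.9904), D2Ertd750e (0.9901) and P2rx6 (0.9883). The r spans both groups, so it reflects the difference between them as well as the spread within them, and it is given as a description over 7 arrays. Each of the 5 was higher with EXO-Post Palm (log2 fold changes of 1.92 to 2.50, limma adjusted p = 0.0108 for each, the smallest of all tested probes). The members' mean was itself higher on every EXO-Post Palm array. The direction and the small p therefore follow from how the 5 were chosen and are no separate result.

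The promoters of the members were looked at for letters bound by factors that are known to act on replication genes. The RefSeq table of GRCm38.p6 holds 9 promoters for 8 of the 9 genes, each from 250 bases before to 50 after the start, with a pair for Fen1 and none for Gins2. Both strands were searched for the E2F letters TTTCCCGC, TTTGGCGC and TTTCGCGC, for CCAAT, bound by NF-Y, and for TTTGAA, the cell cycle homology region (CHR) that the DREAM complex binds. No matches overlapped in the members' promoters. Among all 32851 promoters of the table, 1.07, 0.514 and 0.323% held the E2F forms in that order, 37.4% held CCAAT and 17.9% held TTTGAA. Pola1 was the member with an E2F form, TTTGGCGC on the opposite strand 138 bases before the start. CCAAT was found for Pcna, Pola1, Rrm1 and Rrm2, at 87, 37, 91 and 45, and 50 bases before the start. TTTGAA was found in 1 of the Fen1 promoters, and no searched motif was found for Tk1, Tyms or Rfc4. Pola1 is shown as the promoter with both an E2F form and CCAAT, Rrm2 as that of a member whose groups overlapped, and Tk1 as that of the member with the largest difference. The motifs are in capitals.
Pola1 promoter, chrX:93632106-93632405, minus strand: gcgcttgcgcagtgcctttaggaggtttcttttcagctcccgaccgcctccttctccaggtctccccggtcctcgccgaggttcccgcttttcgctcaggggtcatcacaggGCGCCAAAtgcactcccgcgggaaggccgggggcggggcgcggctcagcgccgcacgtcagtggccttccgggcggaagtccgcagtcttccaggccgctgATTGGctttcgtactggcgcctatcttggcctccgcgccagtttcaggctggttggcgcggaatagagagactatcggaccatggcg
Rrm2 promoter, chr12:24708004-24708303, plus strand: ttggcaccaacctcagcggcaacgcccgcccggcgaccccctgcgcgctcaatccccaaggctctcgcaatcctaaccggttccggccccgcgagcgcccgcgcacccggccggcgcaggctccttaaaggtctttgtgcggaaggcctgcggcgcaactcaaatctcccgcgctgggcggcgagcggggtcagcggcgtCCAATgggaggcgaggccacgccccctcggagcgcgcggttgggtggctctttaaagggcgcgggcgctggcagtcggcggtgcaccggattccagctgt
Tk1 promoter, chr11:117825965-117826264, minus strand: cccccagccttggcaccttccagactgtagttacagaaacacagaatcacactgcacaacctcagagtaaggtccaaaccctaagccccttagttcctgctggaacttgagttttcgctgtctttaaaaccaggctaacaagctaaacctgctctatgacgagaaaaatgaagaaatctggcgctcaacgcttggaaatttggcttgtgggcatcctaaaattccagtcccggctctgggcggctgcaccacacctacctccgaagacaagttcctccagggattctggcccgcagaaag
A match is a description of these letters and was not set against the expression values.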

How the data were processed

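RNA of 7 cultures was measured, 4 EXO-Post BSA and 3 EXO-Post Palm, with 0.1 µg labelled per array. For each array the authors deposited the scanner software's spot intensities, of which the background-subtracted processed signal was used here, and a table of log2 values with the same median on every array. The submitters' processing notes name Agilent Feature Extraction 9.1 and limma, while the file headers give later versions. Settings of the authors' normalisation are not given in the sources used here.

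Uneven spots and replicate-spot outliers, by the software's own marks, were left out, and no spot was saturated. Log2 intensity minus each array's 75th percentile was tested with limma 3.58.1 in R 4.3.3 (2-sided, prior degrees of freedom 3.67, Benjamini-Hochberg adjustment over the 21589 probes that 75% or more of the arrays of 1 or both groups showed well above background). A gene with several probes was counted by its brightest. Exact permutation tests were 2-sided over 35 splits. The number of arrays limits the precision. Named genes were all members, the genes of the same complex or step, further list genes past the threshold, the 5 genes most like the members, and marker lists. Rnaseh2b, Pole2, Impdh1, Paics and Cd14 fall outside this rule and were named after their values were seen. The members and lists were chosen with earlier results of these data known. There were 20 alternatives, of which normexp (offset 50) on median signals and the fit with marked spots kept were chosen after seeing the data. The model was tested on simulated data. Of the genes the rule names, 1 is not reported here. The other experiments of the study were not analysed here.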

Additional observations from a re-analysis of the deposited data

How the results depend on the processing

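The probes called over the whole array numbered 115, and 0 without a filter on dim probes (1900 at an unadjusted p under 0.05), 181 with slide as a random block, 0 with a replicate block (1933 unadjusted), 173 with a trended and robust fit, 0 by the methods' t-test (2108 unadjusted) and 4 to 228 with 1 array left out, lowest without EXO-Post Palm replicate 3 and highest without EXO-Post Palm replicate 2. The members called numbered 0 (4 at an unadjusted p under 0.05, and 5 by the methods' t-test), and 1, Tk1, with the median subtracted, with normexp, with the authors' values, with the filter on all 7 arrays, with slide as a random block, with array weights and with the trended and robust fit, and 0 to 1 with 1 array left out. The replicate block gave 0 members called and a members' median of 0.80. Same-numbered arrays deviated together with correlations of 0.122, -0.150 and -0.148, so the numbers were not taken to pair the samples. The members' median of 0.73 was 0.58 with normexp, 0.61 with the authors' values and 0.51 to 0.83 with 1 array left out. Fork proteins called numbered 0, and 0 to 1 with 1 array left out, this being the polymerase epsilon subunit Pole2 without EXO-Post Palm replicate 2.

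All members but Rrm1 kept their direction under all 20 alternatives. Rrm1 was at 0.088 with normexp, 0.073 with the authors' values, 0.0067 with the replicate block and -0.52 to 0.23 with 1 array left out. The other genes that changed sign passed in no fit. With normexp, Gins4 was at -0.14 and Lig1 at 0.040. With the authors' values, Gins4 was at -0.15, Lig1 at 0.044 and Tk2 at -0.017. With slide as a fixed block, Prim2 was at 0.31, Gins3 at 0.26 and Rpa1 at 0.17, and Rpa2, whose sign changed without EXO-Post Palm replicate 1, was at 0.88. With the replicate block, Lig1 was at 0.023 and Samhd1 at -0.032. Samhd1 was at -0.0051 with the median subtracted and Rpa1 at 0.029 with array weights. With 1 array left out, the ranges were -0.036 to 0.33 for Pola2, -0.44 to 0.18 for Prim2, -0.54 to 0.055 for Gins3, -0.19 to 0.26 for Gins4, -0.21 to 0.13 for Lig1, -0.27 to 0.22 for Rpa1, -0.18 to 0.73 for Rpa2, -0.15 to 0.56 for Tk2 and -0.073 to 0.22 for Samhd1. The causes were not tested. Probes too dim for the filter, such as those of Cdc45, Dna2, Rrm2b and Dck, gave no result. Normexp could not be run on mean signals as planned, since the output for EXO-Post BSA replicate 3 holds median signals only.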
